A study of Mus musculus with 8 samples.

Results

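The guanylate-binding proteins described here are the products of 8 mouse genes, Gbp2, Gbp3, Gbp4, Gbp5, Gbp6, Gbp7, Gbp8 and Gbp9, which were chosen by gene symbol from a table of 55385 genes. All 8 were found, and all 8 passed the filter on low counts that left 17537 genes to be tested. RNA was sequenced from primary cultured microglia, the resident macrophages of the brain, grown from the neocortex and hippocampus of wild-type newborn mice. Cells of pooled brains were kept for 12 days in flasks and, once shaken off, for 3 days on plates. In 4 cultures the cells then received 10 µg/ml IgG at DIV15 (day 15 in vitro) for 24 h, and 4 control libraries, labelled untreated and described in the methods as given PBS, came from cultures with the same growth history. Each control library shares its replicate number, and a date in the labels whose step is not stated, with an IgG library, so that the 8 libraries form 4 pairs. As a model these are neonatal cells kept outside the brain, and the RNA of each library comes from a whole well, so that more cells expressing a gene and more RNA per cell cannot be told apart.

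Guanylate-binding proteins (GBPs) are large GTPases of the dynamin superfamily that cells make in response to interferons. Interferon receptors signal through JAK kinases to transcription factors that bind interferon-stimulated response elements (ISREs), as STAT2 does in a complex with IRF9, or gamma-activated sites (GAS), and IRF1 adds to the induction of many GBP genes. The proteins assemble on membranes of bacteria and of vacuoles that hold parasites, together with the immunity-related GTPases, and some of them open the way to inflammasome activation. In microglia, as in other macrophages, GBP genes are widely used as a readout of interferon signalling.

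The 8 genes lie in 2 clusters (GRCm38, GENCODE M21 models). On chromosome 3, forward strand, stand Gbp5 (chr3:142493978-142522344), Gbp7 (chr3:142530342-142550149), Gbp3 (chr3:142560026-142573209) and Gbp2 (chr3:142620602-142638008). On chromosome 5, reverse strand, stand Gbp8 (chr5:105014150-105139540), Gbp9 (chr5:105077630-105139539), Gbp4 (chr5:105115767-105139586) and Gbp6 (chr5:105270702-105293698). The members differ in how far they can be counted as single genes. Of the 50-base stretches in a gene's transcripts, those also found in another gene's transcripts made up 1.44% for Gbp5, 2.03% for Gbp2, 3.75% for Gbp3 and 12.7% for Gbp7. The same share was 7.70% for Gbp4, 8.05% for Gbp9, 18.1% for Gbp8 and 70.7% for Gbp6. Gbp6 shares 1726 exon bases with the overlapping gene Gm43302, Gbp7 shares 637 with Gm43802, and the models of Gbp4, Gbp8 and Gbp9 share 60 to 61 bases of exon. The sources used here do not state how reads that match several genes were assigned or whether strand was used, so values for Gbp6, and to a lesser degree for Gbp8 and Gbp7, are uncertain as single genes.

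Promoter sequences were read for the members of chromosome 3. The set of RefSeq (GRCm38.p6) promoters used here held 5 start-site windows for 4 of the 8 members, Gbp2, Gbp3, Gbp5 and Gbp7. The other members were absent from that set. The windows, 250 bases before to 50 bases after the start, were searched on both strands for the ISRE core (GAAA, NN and GAAA in a row, where N is any base, which reads TTTC, NN and TTTC on the other strand), and for the GAS letters TTCNNNGAA. These start sites are RefSeq's and differ from the starts of the GENCODE models above. The Gbp5 window and the second window of Gbp3 lie inside their models. Those of Gbp7 and Gbp2, and the first of Gbp3, run past the start of theirs. The matches of Gbp5 and Gbp2 thus lie inside the GENCODE models. Below are the 250 bases before the RefSeq start of each gene, 5′ to 3′ on the forward strand, with every match in capitals: chr3:142496684-142496933 for Gbp5, chr3:142530086-142530335 for Gbp7, chr3:142559794-142560043 for Gbp3 and chr3:142620413-142620662 for Gbp2. They are shown because all 4 hold the ISRE core, as does the window of Gbp2b, a family gene of chromosome 3 outside the 8.
Gbp5: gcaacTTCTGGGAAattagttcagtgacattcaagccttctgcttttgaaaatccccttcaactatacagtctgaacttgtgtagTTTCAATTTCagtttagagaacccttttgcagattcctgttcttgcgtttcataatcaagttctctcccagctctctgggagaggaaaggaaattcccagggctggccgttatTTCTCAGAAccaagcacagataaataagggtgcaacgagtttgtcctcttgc
Gbp7: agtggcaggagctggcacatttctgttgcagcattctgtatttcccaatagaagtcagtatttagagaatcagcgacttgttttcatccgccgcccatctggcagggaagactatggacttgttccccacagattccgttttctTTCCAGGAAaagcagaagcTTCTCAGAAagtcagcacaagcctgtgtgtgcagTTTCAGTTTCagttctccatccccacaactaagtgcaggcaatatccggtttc
Gbp3: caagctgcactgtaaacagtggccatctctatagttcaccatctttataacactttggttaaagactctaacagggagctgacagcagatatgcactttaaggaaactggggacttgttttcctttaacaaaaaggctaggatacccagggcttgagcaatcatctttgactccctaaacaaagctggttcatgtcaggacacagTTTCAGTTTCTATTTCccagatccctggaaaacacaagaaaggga
Gbp2: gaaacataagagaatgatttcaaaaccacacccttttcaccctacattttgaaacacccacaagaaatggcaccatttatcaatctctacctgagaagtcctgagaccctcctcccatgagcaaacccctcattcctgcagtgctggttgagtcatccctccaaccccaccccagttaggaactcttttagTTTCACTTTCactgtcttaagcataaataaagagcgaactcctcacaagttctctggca

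Each ISRE core match reads as the TTTC form on the strand shown, as TTTCAATTTC in Gbp5, TTTCAGTTTC in Gbp7 and TTTCACTTTC in Gbp2. It lies at -165 to -156 in Gbp5, -53 to -44 in Gbp7 and -59 to -50 in Gbp2, counted from the start site. Gbp3 holds a pair of overlapping matches, at -45 to -36 and -39 to -30, and its second window (chr3:142560106-142560405) holds none. Matches to the GAS letters stand in Gbp5 at -245 to -237 and -52 to -44, and in Gbp7 at -106 to -98 and -87 to -79, and Gbp2 and Gbp3 have none in these windows. Of 32851 windows of the same length in the table, 3.44% hold the ISRE core, 8.3% the GAS letters and 0.454% hold both, as the Gbp5 and Gbp7 windows do. A match is a run of letters and was not tested as a binding site.

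Between 21287816 and 23703216 counts were deposited per library. The limit that a count of 0 allows, 3 counts, is then 0.127 to 0.141 CPM, a count scaled by the library's total. The 4 control libraries and the IgG libraries 2 and 4 had 1.97% to 2.41% of their counts in mitochondrial genes, and the IgG libraries 1 and 3 had 4.85% and 5.59%. The 10 microglial markers summed to 7058 to 7814 CPM in control and 7918 to 8403 CPM in IgG libraries, and 2 of the 10, Aif1 and Fcrls, rose (adjusted p = 0.0331 and 0.0329 in edgeR's quasi-likelihood test with the replicate number as a block, beside 0.393% of all genes higher, and over 0.05 without the block). Behind these sums, single markers differed between the IgG libraries, in both directions. In IgG libraries 1 to 4 Trem2 was at 627, 805, 563 and 1111 CPM and C1qa at 1369, 2124, 1443 and 2270 CPM. Csf1r went the other way, at 1646, 1170, 1742 and 1192 CPM. Cd3e, Cd3g, Cd8a and Ncr1, which define T and NK cells, the usual sources of interferon gamma, were at 0 in all 8 libraries, and the 5 T and NK markers summed to 1.00 to 2.75 CPM in control and 1.3 to 2.03 CPM in IgG libraries. The 5 markers of border-associated macrophages summed to 57.1 to 81.8 CPM in control and 51.2 to 106 CPM in IgG libraries. Most of that was Mrc1, at 50.5 to 74.9 CPM in control and 42.6 to 101 CPM in IgG libraries. Over all libraries Lyve1 had 0 to 5 counts, Cd163 0 to 3 counts and F13a1 0.23 to 0.77 CPM. Astrocyte markers summed to 94.7 to 110 and 89.2 to 104 CPM, and those of the oligodendrocyte lineage to 1005 to 1570 and 847 to 1482 CPM. Endothelial markers (0.34 to 2.09 and 1.27 to 4.61 CPM, with Cldn5 at 0), fibroblast markers (2.26 to 4.56 and 3.0 to 5.0 CPM) and neuronal markers (16.1 to 21.8 and 10.8 to 18.8 CPM) were low. Cdh5, an endothelial marker, had a log2 fold change of 0.98 ± 0.24 (SE; adjusted p = 0.221) and met the criterion of the study given below, and the median of the 2 endothelial markers tested was 1.01. Their part in the results below was not tested.

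The first question was whether the GBP genes differed between IgG-treated and control microglia. All 8 had a higher fitted level with IgG, by 0.48 to 0.98 on the log2 scale with the replicate number as a block, which is 1.40-fold to 1.97-fold. The median of the 8 log2 fold changes was 0.78, beside -0.01 over all genes tested. None of the 8 passed an adjusted p of 0.05 (edgeR's quasi-likelihood test, Benjamini-Hochberg over 17537 genes), a threshold that 0.393% of all genes passed as higher, and the adjusted p-values of the members ran from 0.0520 to 0.408. At an unadjusted p under 0.05, all 8 of 8 were higher, beside 6.35% of all genes. By the criterion of the study, an unadjusted p under 0.01 with a log2 fold change beyond 0.5 in either direction, 6 of 8 were higher, beside 1.48% of all genes. Gbp4 and Gbp9 did not meet it in this fit. The study's gene ontology table of its differentially expressed genes does name Gbp4, and the study does not state its design formula. Gbp4 met it in DESeq2, in the likelihood ratio test, with a filter of only 1 count and without the pair of replicate 3. Gbp9 met it without the pair of replicate 4. Gbp8 missed it in DESeq2 and without the pair of replicate 1, 3 or 4, and Gbp7 without that of replicate 2. The count was 5 of 8 without the pair of replicate 1 or 2, and 6 of 8 without that of 3 or 4.

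Other tools placed the same differences on the other side of the adjusted threshold. With the block, the adjusted p was under 0.05 for 6 of 8 genes in DESeq2 (all but Gbp4 and Gbp8; 1.21% of all genes were higher), for 7 of 8 in edgeR's likelihood ratio test (all but Gbp4; 1.6% of all genes) and for 1 of 8, Gbp6, in limma-voom (0.496% of all genes). Leaving out the pair of replicate 4 gave 5 of 8 in the quasi-likelihood test (Gbp2, Gbp3, Gbp6, Gbp7 and Gbp9, beside 0.974% of all genes), and leaving out any other pair gave 0. With trends on gene length and GC content removed it was also 5 of 8, the same genes, beside 1.2% of all genes, and with a filter of only 1 count over all libraries 6 of 8 (all but Gbp4 and Gbp8), beside 0.972%. Without the replicate block the fitted values stayed positive, between 0.53 and 1.10, but their standard errors were 0.34 to 0.66 in place of 0.11 to 0.25. Without the block the adjusted p-values were 0.692 to 0.823, 3 of 8 genes had an unadjusted p under 0.05 (4.83% of all genes were higher at that level), and none met the criterion of the study (0.582% of all genes). Without IgG library 4 that count was 4 of 8, Gbp2, Gbp5, Gbp6 and Gbp7 (2.56% of all genes). The lowest fitted value without the block, that of Gbp4, was 0.14 with control library 4 left out and 0.18 with IgG library 1 left out.

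**Figure D1:**
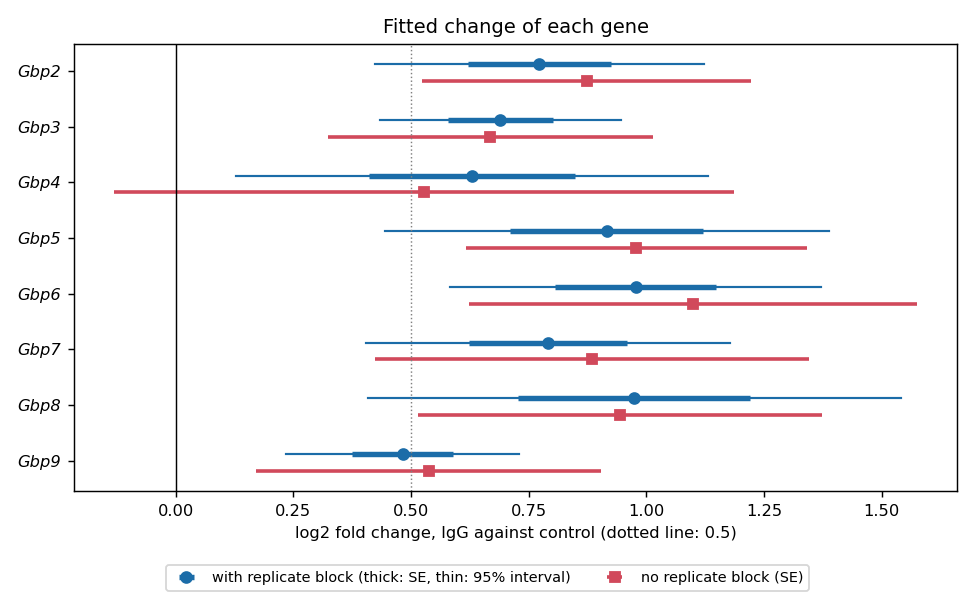
Fitted log2 fold change of each GBP gene, IgG against control (x axis), with the replicate block (blue circles, thick bar SE, thin bar 95% interval) and with no replicate block (red squares, bar SE), from 4 libraries per group. The blue points lie between 0.48 and 0.98 with intervals above 0, and the red points lie at like values with wider errors.

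Gbp2, which carries a prenylation signal and coats parasite vacuoles, was the most abundant member per length. Its level in control libraries 1 to 4 was 32.5, 24.9, 29.8 and 16.6 CPM, and in the IgG libraries of the same numbers 74.3, 32.7, 60.8 and 22.6 CPM. IgG library 4 lay below control libraries 1, 2 and 3, so the groups overlapped, although every pair had the higher level with IgG. The means were 26.0 ± 6.98 and 47.6 ± 24.1 CPM (SD, n = 4 each), and the log2 fold change was 0.77 ± 0.15 (SE; 95% interval 0.42 to 1.12; adjusted p = 0.107).

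Gbp5, also prenylated and linked to inflammasome assembly, was low throughout. It stood at 4.48, 3.74, 4.35 and 2.11 CPM in the controls and at 11.6, 4.26, 8.98 and 4.23 CPM in IgG libraries 1 to 4. Libraries 1 and 3 with IgG exceeded all others, and those of replicates 2 and 4 were within the range of the controls. Gbp5 had a log2 fold change of 0.92 ± 0.20 (SE; 95% interval 0.45 to 1.39; adjusted p = 0.166).

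Gbp3 showed the most even response. Control libraries 1 to 4 held 13.6, 8.07, 10.4 and 4.56 CPM, and IgG libraries 1 to 4 held 20.3, 13.1, 17.1 and 7.87 CPM. The changes within the pairs, in log2 CPM, were 0.58, 0.69, 0.71 and 0.78, a narrower span than for any other member, while the groups overlapped. Its log2 fold change was 0.69 ± 0.11 (SE; 95% interval 0.43 to 0.95; adjusted p = 0.0520).

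Gbp7, which takes part in the defence against intracellular parasites, was at 12.1, 8.88, 8.75 and 3.83 CPM in control libraries 1 to 4. With IgG it was at 22.7, 14.7, 20.3 and 4.32 CPM. IgG libraries 1 to 3 exceeded all 4 controls, and IgG library 4 was near its own control and below the other three. The log2 fold change was 0.79 ± 0.17 (SE; 95% interval 0.40 to 1.18; adjusted p = 0.140).

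On chromosome 5, Gbp9 had the highest CPM of the 8 and the smallest fitted change. Levels in replicates 1 to 4 were 62.3, 44.6, 49.6 and 23.8 CPM without IgG and 94.1, 59.0, 81.4 and 27.3 CPM with it. Each IgG library exceeded its own control, by 1.51-, 1.32-, 1.64- and 1.15-fold. The fitted log2 fold change was 0.48 ± 0.11 (SE; 95% interval 0.23 to 0.73; adjusted p = 0.167), so that it missed the study's fold criterion but not its unadjusted p of 0.01.

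Gbp6, which like Gbp9 gathers on parasite vacuoles, had the largest fitted change over all pairs, level with Gbp8 within the errors. Without the pair of replicate 1 or 3 the largest was that of Gbp8 (1.03 and 0.94), and without that of replicate 2 that of Gbp5 (1.15). In replicates 1 to 4 it reached 23.2, 13.3, 16.9 and 7.45 CPM without IgG and 48.5, 25.2, 47.5 and 9.42 CPM with it. IgG libraries 1 to 3 lay above all controls, and IgG library 4 below control libraries 1 to 3. The log2 fold change was 0.98 ± 0.17 (SE; 95% interval 0.58 to 1.37; adjusted p = 0.0653).

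Gbp8 was the scarcest member, with 8 to 33 counts in the control and 22 to 59 counts in the IgG libraries. These correspond to 1.24, 0.99, 1.38 and 0.34 CPM without IgG, in replicates 1 to 4, and to 2.22, 1.57, 2.90 and 1.00 CPM with it. Replicate 4 again gave the lowest library of each group, here with the largest of the 4 changes. Gbp8 had a log2 fold change of 0.97 ± 0.25 (SE; 95% interval 0.41 to 1.54; adjusted p = 0.240).

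Gbp4 was the least even. The 4 controls held 8.29, 5.46, 8.79 and 0.65 CPM, the last from 15 counts, and the level was 13.8, 9.22, 8.54 and 1.91 CPM in IgG libraries 1 to 4. It was the only member not higher in every pair, with a change of -0.04 in pair 3. Its log2 fold change was 0.63 ± 0.22 (SE; 95% interval 0.13 to 1.13; adjusted p = 0.408).

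**Figure D2:**
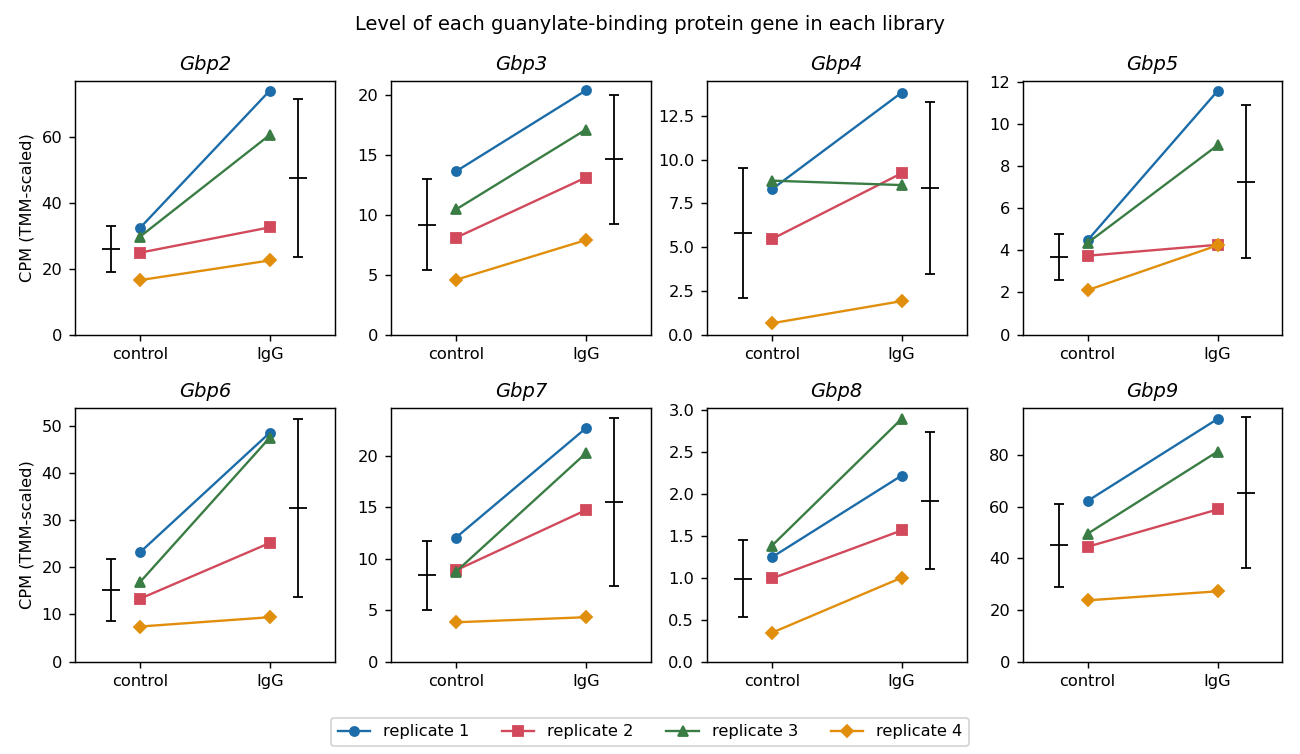
Level of each GBP gene in TMM-scaled CPM (y axis, from 0, a scale for each gene) in the control and IgG library of each replicate, joined by lines, with mean ± SD of each group in black (n = 4). In every panel the 2 libraries of replicate 4 are the lowest of their groups, and all lines go up except that of replicate 3 in Gbp4.

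The second question was how far the changes were alike from pair to pair. In log2 CPM, 7 of 8 members were higher with IgG in all 4 pairs, beside 10.4% of all genes tested, and 0 of 8 had every IgG library above every control library, beside 2.6% of all genes. The median change of the 8 was 0.85, 0.65, 1.02 and 0.61 in pairs 1 to 4, where the median over all genes was 0.01, 0.00, 0.02 and 0.00. The 95th percentile of all genes was 0.70, 0.51, 0.75 and 0.59, and 6, 5, 5 and 4 members lay above it. The members did not share an order of pairs. Gbp2 and Gbp5 had their largest change in pair 1 and their smallest in pair 2. Gbp6, Gbp7 and Gbp9 had their largest in pair 3 and their smallest in pair 4, at 0.34, 0.17 and 0.20. Gbp3, Gbp4 and Gbp8 had their largest in pair 4, at 0.78, 1.45 and 1.33.

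**Figure D3:**
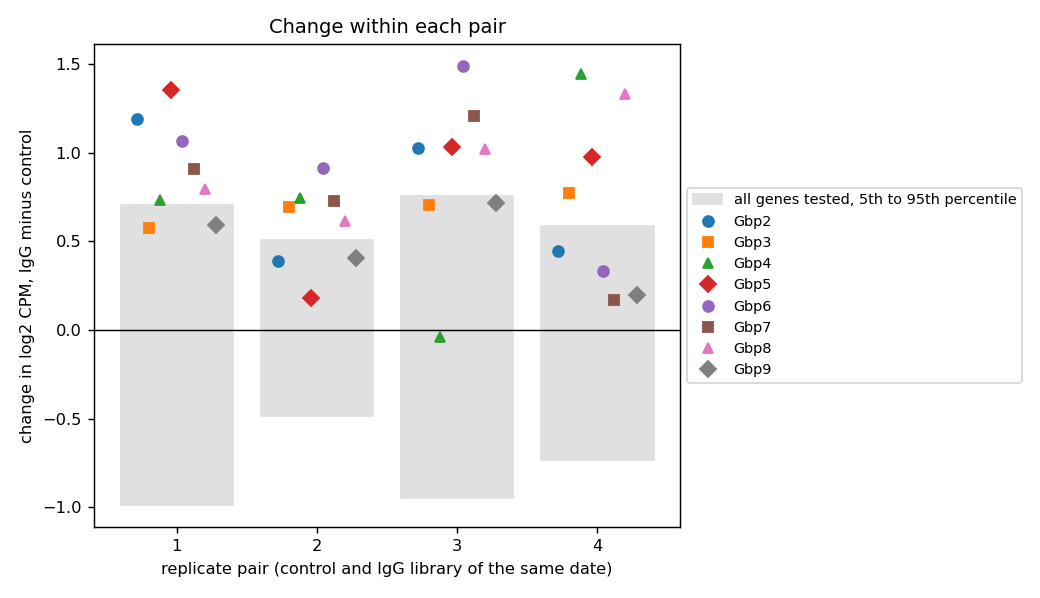
Change in log2 CPM, IgG minus control (y axis), of each GBP gene within each replicate pair (x axis), with the 5th to 95th percentile of all 17537 genes tested in grey. In pairs 1 to 4, 6, 5, 5 and 4 of the 8 points lie above the grey band, and Gbp4 in pair 3 is the only point below 0.

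The IgG libraries 1 and 3, which held the highest levels of most members, are also those with the high mitochondrial share. With pairs 1 and 3 left out together, an alternative chosen after the data were seen, the median log2 fold change of the 8 was 0.61 and all 8 stayed positive. Gbp3 (0.74), Gbp4 (0.99) and Gbp6 (0.65) then had adjusted p-values of 0.0138, 0.0159 and 0.0227 (edgeR with the block, 2 libraries per group), beside 0.867% of all genes that were higher, and the others ran from 0.257 to 0.532. The same 3 met the study's criterion, beside 1.17% of all genes. That fit leaves 1 residual degree of freedom and takes the spread almost wholly from other genes, so these p-values say little of the spread between the pairs. Lower values than over all pairs were those of Gbp2 (0.42 against 0.77), Gbp5 (0.57 against 0.92), Gbp6 (0.65 against 0.98), Gbp7 (0.50 against 0.79) and Gbp9 (0.31 against 0.48). Higher were those of Gbp3 (0.74 against 0.69), Gbp4 (0.99 against 0.63) and Gbp8 (0.99 against 0.97). The part of the mitochondrial share in the remaining differences was not tested.

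Most of the spread of each member lay between replicate pairs. When the sum of squares of log2 CPM over the 8 libraries was divided, the replicate number held 50.5% to 88.8% for the members, with a median of 70.0%. IgG held a median of 27.3% and the remainder 4.26%. Over all genes tested the medians were 44.8%, 11.9% and 34.5%. Gbp4 had the largest share between pairs, with 7.31% for IgG, and Gbp5 the smallest, with 40.1% for IgG. For Gbp3 0.303% was left as remainder. The division sets 4 replicate pairs against 2 groups, so the shares are not per degree of freedom.

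**Figure D4:**
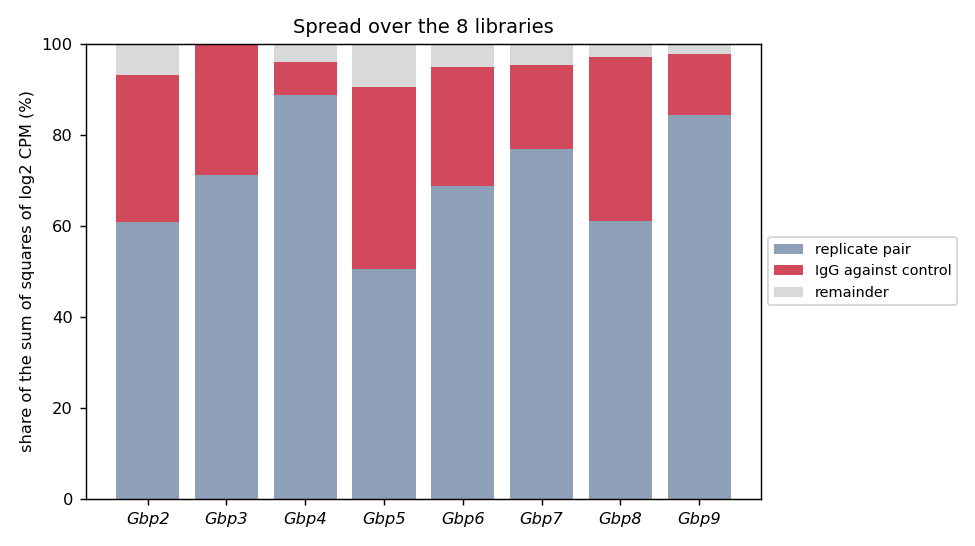
Share of the sum of squares of log2 CPM over the 8 libraries (y axis, %) that lies between replicate pairs, between IgG and control, and in the remainder, for each GBP gene. The replicate pair holds the largest share in all 8, from 50.5% in Gbp5 to 88.8% in Gbp4.

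Replicate 4 was the lowest control and the lowest IgG library for 8 of 8 members, beside 11.8% of all genes tested. Control library 1 exceeded control library 4 by 1.96-fold for Gbp2, 3.61-fold for Gbp8 and 12.8-fold for Gbp4, and by 2.12-fold to 3.15-fold for the others. Replicate 1 was the highest in both groups for 6 of 8 members, all but Gbp4 and Gbp8, beside 11.3% of all genes. IgG library 4 was below control libraries 1, 2 and 3 for 6 of 8 members, all but Gbp5 and Gbp8, beside 33.4% of all genes.

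Per kilobase of exon the members differed widely in level. The control means were 10.3 ± 2.78 CPM per kb for Gbp2 and 8.71 ± 3.10 for Gbp9, then 2.81 ± 1.17 for Gbp3 and 2.56 ± 1.11 for Gbp6. Below these came Gbp7 at 1.49 ± 0.61, Gbp4 at 0.77 ± 0.50, Gbp5 at 0.55 ± 0.16 and Gbp8 at 0.29 ± 0.13 CPM per kb (SD, n = 4). With IgG the means were 18.9 ± 9.56 CPM per kb for Gbp2, 12.7 ± 5.66 for Gbp9, 4.47 ± 1.65 for Gbp3 and 5.49 ± 3.17 for Gbp6. They were 2.76 ± 1.45 for Gbp7, 1.12 ± 0.65 for Gbp4, 1.09 ± 0.55 for Gbp5 and 0.56 ± 0.24 for Gbp8. Gbp2 ranked first, Gbp9 next and Gbp7 after Gbp3 and Gbp6 in all 8 libraries. Gbp3 exceeded Gbp6 in 5 of 8 libraries, the 4 controls and IgG library 4, and Gbp6 was the higher in IgG libraries 1 to 3. Gbp4 exceeded Gbp5 in 5 of 8, control libraries 1 to 3 and IgG libraries 1 and 2. Neither pair of genes had a fixed order over all 8 libraries. The sharing of sequence between Gbp6, Gbp10 and Gm43302 bears on the place of Gbp6.

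Family genes outside the 8 also had positive values, none past the adjusted threshold in the quasi-likelihood test with the block. Gbp10, which shares 73.3% of its 50-base stretches with Gbp6, had a mean of 10.8 ± 5.87 CPM in control libraries and of 23.3 ± 14.97 CPM after IgG, with a log2 fold change of 0.99 ± 0.17 (SE; adjusted p = 0.0596), and it passed in DESeq2, the likelihood ratio test and limma-voom (adjusted p = 7.35e-05, 1.81e-05 and 0.0348) and without the pair of replicate 4 (0.00629). Gm43302 gave 0.99 ± 0.17 (adjusted p = 0.0588), and passed in the same alternatives (adjusted p = 1.92e-05, 1.47e-05, 0.0423 and 0.00634). Gbp2b, the gene of mouse GBP1, and Gbp11, annotated as a polymorphic pseudogene, were near 1 CPM, with log2 fold changes of 0.89 ± 0.33 and 0.86 ± 0.34 (adjusted p = 0.446 and 0.468). Counts of similar genes were also summed, an alternative added after the data were seen, which does not recover reads that the counting dropped or gave to genes outside a sum. The sum of Gbp6, Gbp10 and Gm43302 had a log2 fold change of 0.97 ± 0.16 (adjusted p = 0.0599 with the block and 0.692 without). The sum of Gbp4, Gbp8 and Gbp9 gave 0.50 ± 0.10 (0.0997 and 0.723). The 4 members of chromosome 3 together gave 0.77 ± 0.12 (0.0501 and 0.692), and the 4 of chromosome 5 gave 0.62 ± 0.11 (0.0707 and 0.704).

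Of the interferon ligands, only Ifng and Ifnb1 were examined. Ifng, which encodes interferon gamma, had 0 counts in all 8 libraries. Ifnb1, which encodes interferon beta, had 1 count in control library 2, 3 counts in IgG library 2 and 0 in the others, all within the limit that a count of 0 allows. No comparison between groups can be drawn from either at this depth.

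Receptors and kinases were well expressed, and none of them passed the test. The 4 interferon receptor genes had log2 fold changes of -0.02 to 0.17 (0 of 4 with an adjusted p or an unadjusted p under 0.05), with Ifnar2 at 0.16 and Ifngr2 at 0.17, and the 3 JAK kinase genes -0.04 to 0.20 (0 of 3 by either). Of the 5 transcription factor genes given here, 0 had an adjusted p under 0.05 in the quasi-likelihood test with the block and 2 an unadjusted p under 0.05, both higher, beside 6.35% of all genes. Stat2, which acts in type I interferon signalling, was at 0.45 ± 0.09 (SE; adjusted p = 0.110; 0.0175 in DESeq2, 0.00693 in the likelihood ratio test and 0.0498 without the pair of replicate 4) and Irf9 at 0.25 ± 0.09 (adjusted p = 0.423). Irf1, which drives many GBP promoters, was at 58.5 ± 7.35 and 55.3 ± 3.36 CPM, a log2 fold change of -0.07 ± 0.11 (adjusted p = 0.826) whose sign turned when pair 3, or pairs 1 and 3, were left out.

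Of the genes that restrain interferon signalling, 1 passed. Usp18, which blocks the type I interferon receptor, rose by 0.68 ± 0.10 on the log2 scale (SE; adjusted p = 0.0350, 4 of 4 pairs) and was the only 1 of 5 in its list to pass, beside 0.393% of all genes. Its libraries were at 44.9, 36.9, 36.4 and 20.3 CPM in control and 66.1, 53.6, 63.0 and 36.8 CPM with IgG. It did not pass without the replicate block (adjusted p = 0.692), with total-count or upper-quartile scaling, or without pair 1, 2 or 3. Socs1, an inhibitor of JAK kinases, averaged 2.46 ± 0.40 CPM without and 1.45 ± 0.37 CPM with IgG, a fitted change of -0.77 ± 0.27 (adjusted p = 0.413) with every IgG library below every control library, beside 1.57% of all genes, and it met the study's criterion without the block (unadjusted p = 0.00945 in edgeR) but not with it. Ptpn6, a phosphatase gene, had every IgG library above every control library, beside 2.6% of all genes, at 306 ± 29.0 CPM without and 355 ± 10.1 CPM with IgG, a fitted change of 0.22 ± 0.10 (adjusted p = 0.487).

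The immunity-related GTPases, which act with GBPs on vacuole membranes, included members that passed. Of 7 tested, 3 rose, beside 0.393% of all genes, all 7 had positive values, beside 8609 of the 17537 genes, and the median log2 fold change was 0.60. Irgm1, a regulator of the other immunity-related GTPases, rose by 0.65 ± 0.10 (SE; adjusted p = 0.0444), Igtp, also called Irgm3, by 0.60 ± 0.09 (adjusted p = 0.0362) and Ifi47 by 0.77 ± 0.10 (adjusted p = 0.0327), each in 4 of 4 pairs. Irgm2 was at 0.53 (adjusted p = 0.102; 0.0175 in DESeq2 and 0.00252 in the likelihood ratio test), Iigp1 at 0.96 from a level near 1 CPM (adjusted p = 0.364), and the near-identical Tgtp1 and Tgtp2 at 0.53 and 0.55 (adjusted p = 0.524 and 0.497). Without the replicate block, or with total counts as the only scaling, 0 of 7 passed, leaving out pair 1, 2 or 3 also gave 0 of 7, and leaving out pair 4 gave 4 of 7. The Igtp libraries were at 42.8, 30.1, 37.6 and 19.6 CPM in control and 66.8, 44.8, 58.7 and 28.2 CPM with IgG, so that replicate 4 was the lowest of each group here too.

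**Figure D5:**
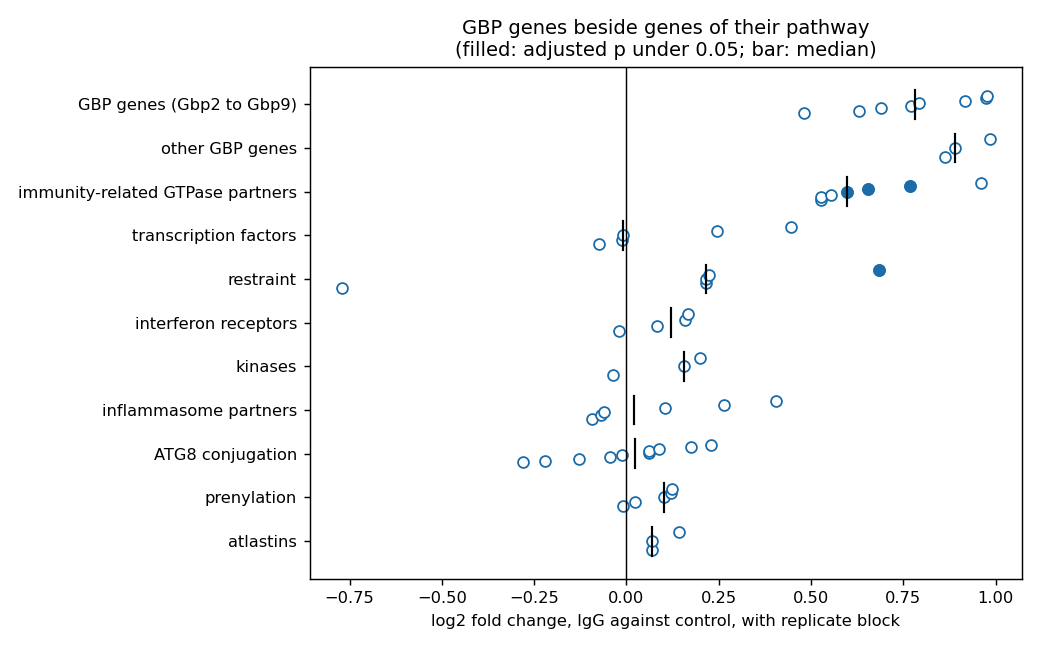
Log2 fold change, IgG against control with the replicate block (x axis), of the 8 GBP genes and of the listed pathway genes, 1 point per gene, filled where the adjusted p is under 0.05, with a bar at each list's median. The GBP genes lie between 0.48 and 0.98 without a filled point, and the filled points are Usp18, Irgm1, Igtp and Ifi47.

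Among 15659 genes with a mean of at least 1 CPM outside the family, 5 had the pattern over the 8 libraries most like the members' median pattern. Likeness was the root mean square difference between centred log2 CPM profiles. The 5 were Ifit3b (0.088), Ms4a6b (0.093), Samd9l (0.107), Ifit3 (0.108) and Ifi202b (0.115), where the members themselves stood at 0.16 for Gbp3 to 0.28 for Gbp5 and Gbp8 and at 0.73 for Gbp4. Ifit3, which encodes an interferon-induced antiviral protein, had a log2 fold change of 0.89 ± 0.10 (SE; adjusted p = 0.0145), and Ifit3b, its near copy, 0.86 ± 0.10 (adjusted p = 0.0154). Ms4a6b was at 0.88 ± 0.09 (adjusted p = 0.0145), Samd9l at 0.89 ± 0.13 (adjusted p = 0.0362) and Ifi202b at 0.61 ± 0.11 (adjusted p = 0.0823; 0.000923 in DESeq2 and 0.000603 in the likelihood ratio test). Without the replicate block the adjusted p-values of all 5 were 0.692 to 0.704. The measure was set to seek the likeness, so the likeness is a description.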

How the data were processed

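Poly(A) RNA of 8 microglial cultures was sequenced, 4 control and 4 IgG. Per the submitters' processing notes and the methods, the authors filtered reads and aligned them to GRCm38 (mm10) with HISAT2 2.2.1, and the notes also name SAMtools 1.12, Picard 2.26.3, R 4.1.2, featureCounts and edgeR 3.36.0. The deposited values are raw counts per Ensembl gene, with no normalization. Symbols and models came from GENCODE M21, which matched 55144 of 55385 identifiers.

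The main test, after TMM scaling and filterByExpr, was edgeR's quasi-likelihood F-test (edgeR 4.0.16, R 4.3.3) with the replicate number as a block and Benjamini-Hochberg adjustment over 17537 genes, a threshold of 0.05. CPM used TMM library sizes, log2 CPM a prior count of 2. Standard errors were derived from the test statistic. Labels give libraries of the same number the same date, and deviations from group means correlated across 15669 genes at 0.41, 0.33, 0.26 and 0.32 within pairs and at -0.34 to 0.20 otherwise. Replicates were not repeats of a library: chi-square per degree of freedom was at least 5.0. It was 5.0 to 17.6 between control libraries. Between IgG libraries it was 6.59 for 1 and 3 and 26.9 for 2 and 4. IgG libraries 1 and 3 stood further from 2 and 4, at 65.3 to 121. Where cultures of a date share pooled cells, p-values measure the spread between these cultures.

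Alternatives were no replicate block, RLE, upper-quartile and total-count scaling, other filters, DESeq2 1.42.0, limma-voom (limma 3.58.1), the likelihood ratio test, trends on length and GC removed, and libraries left out. The script was tested on simulated data. The members and lists were chosen with earlier results of these data known. Named genes are the 8 members, genes of the fixed pathway lists, and the 5 most alike. Gene lists were interferon ligands, receptors, kinases, transcription factors, restraint, GTPase partners, inflammasome partners, ATG8 conjugation, prenylation and atlastins, and markers of 8 cell types. Irgb10 of the GTPase partners matched no symbol. A gene of the transcription factor list is not reported here. Sequences are RefSeq's.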

Additional observations from a re-analysis of the deposited data

How the results depend on the processing

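Over 23 alternatives all 183 fitted values of the 8 GBP genes kept a positive sign, and 33 of them passed the adjusted threshold that 0 of 8 passed with the replicate block. The number of GBP genes with an adjusted p under 0.05 was 0 without the replicate block, 6 with a filter of at least 1 count over all libraries, 6 with DESeq2, 7 with the likelihood ratio test, 1 with limma-voom, 5 with trends on length and GC removed, 3 without the pairs of replicates 1 and 3, and 0 to 5 when a pair was left out (5 without replicate 4). The number meeting the study's criterion, 6 with the block, was 5 or 6 when a pair was left out, 0 with no replicate block, 3 without pairs 1 and 3, and 0 to 4 with no replicate block and a library left out (4 without IgG library 4, 0 without any other). Their median, 0.78, was 0.61 to 1.13 there (1.04 without control library 1). Over all genes, 69 had an adjusted p under 0.05 with the replicate block and 0 without it, 37 with total counts, 376 with the filter of at least 1 count, 231 with DESeq2, 327 with the likelihood ratio test, 223 with the trends removed and 190 without pairs 1 and 3, and 0 (without replicate 2) to 182 (without replicate 4) with a pair left out, or 0 to 6 with no replicate block. The study's criterion was met by 320 genes with the block, 148 with no replicate block, 648 with the filter of at least 1 count, 528 with the likelihood ratio test and 215 to 762 with a pair left out (762 without replicate 4). With no replicate block it was 140, 93, 112 and 89 without control libraries 1 to 4, 88, 348, 87 and 610 without IgG libraries 1 to 4. Irf1, at -0.07, was at -0.20 to 0.0054 with a pair left out (0.0054 without replicate 3) and at 0.13 without pairs 1 and 3, and Tgtp1, at 0.53, was at -0.045 without pairs 1 and 3. Of 620 values of 27 family, pathway and most alike genes given with a value, 617 kept their sign. By the adjusted threshold, 103 of the 620 lost a call that the main fit gave, and 29 gained a call. Total-count scaling moved the median of all genes to -0.11, and that of the GBP genes to 0.68. The filter of at least 10 counts in every library left 7 of the 8, without Gbp8. Gbp10, Gm43302, Stat2, Irgm2 and Ifi202b passed the adjusted threshold with the filter of at least 1 count, with the trends removed and without replicate 4. Pairing changed the calls of Aif1, Fcrls, Usp18, Irgm1, Igtp and Ifi47, and the last 4 had adjusted p-values of 0.692 to 0.704 with no replicate block. The cause of these differences was not tested. Depth limits Gbp8, Gbp4 in control library 4, Ifng and Ifnb1.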

Other observations

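Genes that act downstream of the GBPs or prepare membranes for them did not pass the test. Of 6 inflammasome genes, 0 had an adjusted p under 0.05 (edgeR's quasi-likelihood test with the replicate block) and 2 an unadjusted p under 0.05, both higher, beside 6.35% of all genes, and the median log2 fold change was 0.02. These were Casp4, the sensor of intracellular lipopolysaccharide, at 0.41 ± 0.12 (SE; adjusted p = 0.346) and Casp1, which cleaves interleukin precursors, at 0.26 ± 0.09 (adjusted p = 0.428). Of 10 genes of ATG8 conjugation, the system that brings GBPs to vacuoles, 0 passed and 1 had an unadjusted p under 0.05, Gabarapl1 at -0.22 ± 0.09 (adjusted p = 0.475), beside 3.85% of all genes lower at that level, with a range of -0.28 to 0.23. The 5 prenylation genes, whose enzymes attach lipid anchors, ranged from -0.01 to 0.12, and the 3 atlastins, relatives of the GBPs by fold that shape the endoplasmic reticulum, from 0.07 to 0.14, with 0 past either threshold.

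The GBP gene models are poorer in G and C than most genes tested. Their GC content was 42.5% for Gbp6 to 47.8% for Gbp2, at the 11.3th to the 36.9th percentile of the genes tested, whose median was 50.1%. With trends on length and GC content removed in the fit with the replicate block, their median log2 fold change was 0.74. A test for a library far from the rest of its group, Dixon's, was made on 16 sets of 4 libraries and marked none.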
